A study of Mus musculus with 7 samples.

Results

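The integrated stress response genes described here are 10 genes of the Atf4 axis, chosen by name. The deposited count table held 21257 entries, of which 20927 remained after merging entries that shared counts. The 10 genes include the transcription factors Atf4, Atf5 and Ddit3, the feedback regulator Trib3 and the glutathione-degrading enzyme Chac1. The others are the enzymes Asns, Psat1 and Mthfd2 and the secreted factors Fgf21 and Gdf15. All 10 had a single entry in the table, and 9 passed the filter of at least 10 counts in at least 3 libraries, Fgf21 being the exception. RNA was measured in left ventricles of 3 WT mice (replicates 1, 3 and 4) and 4 mice homozygous for the titin missense change A178D (replicates 1 to 4), all labelled C57BL/6J, with 1 stranded poly(A) library per heart read from both ends. The A178D allele was made by CRISPR-Cas9 repair in clonal C57BL/6N embryonic stem cells, and the line was bred back to C57BL/6J over several generations before WT and homozygous littermates were taken. Age and sex of these 7 hearts are not given in the sources used here. The libraries held 33080675 to 54245530 counts.

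In the integrated stress response, kinases that sense unfolded protein in the endoplasmic reticulum, amino acid shortage, double-stranded RNA or haem and mitochondrial stress phosphorylate the initiation factor eIF2, which lowers general translation while the Atf4 mRNA is translated more. Atf4 then induces genes for amino acid synthesis and uptake, tRNA charging and one-carbon metabolism, as well as Ddit3 (Chop), Trib3 and Chac1, and in heart muscle Fgf21 and Gdf15 are known as factors secreted under mitochondrial stress. Atf4 and Atf5 are controlled largely by translation, so that their mRNA levels need not follow their protein.

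The labelled tissue was checked against cardiomyocyte markers. Myh6, the cardiac myosin heavy chain and the most abundant of the 6 markers, lay between 35690 and 41666 counts per 1000000 (CPM, library sizes scaled by TMM) in the 7 hearts, and 0 of the 6 were called (edgeR, with 1 higher and 1 lower at an unadjusted p under 0.05; DESeq2, 0). Of 3 atrial genes, the light chain gene Myl7 did not exceed 0.152 CPM and Sln was counted in a single heart at 0.0991 CPM. Myl4, the most abundant and the only one tested, was at 1.90, 1.89 and 1.85 CPM in WT replicates 1, 3 and 4 and at 4.01, 2.14, 2.60 and 3.06 CPM in A178D replicates 1 to 4. Its groups did not overlap, with a log2 fold change of 0.65 (edgeR with Benjamini-Hochberg adjustment, adjusted p = 0.171), and the part of atrial tissue in the members' values was not tested.

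The Atf4-axis genes had log2 fold changes of both signs in A178D hearts. Mthfd2, a mitochondrial folate enzyme, rose, and it was the only member to pass the test: 1 of 9 tested members was called, against 2.35% of all 13894 tested genes, and 0 were called lower (quasi-likelihood test of edgeR, Benjamini-Hochberg adjusted p under 0.05). By direction, 1.04% of all tested genes were called higher and 1.31% lower. Gdf15, Psat1 and Atf5 had log2 fold changes above 0 without passing the test, Atf4, Ddit3 and Asns had values near 0, and Trib3 and Chac1 had values below 0. The median log2 fold change of the 9 members was 0.056, beside 0.0023 for all tested genes. At an unadjusted p under 0.05, 4 of 9 members were higher and 1 was lower, where 7.93% of all tested genes were higher and 8.81% lower. In 4 of 9 members the lowest A178D heart exceeded the highest WT heart, a separation that 7.61% of all tested genes showed, and 0 members separated in the other direction, which 8.52% of all genes did. DESeq2's Wald test, which called 2.21% of genes higher and 2.88% lower at the same threshold, called 2 members higher, Mthfd2 and Gdf15, and 0 lower.

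**Figure D1:**
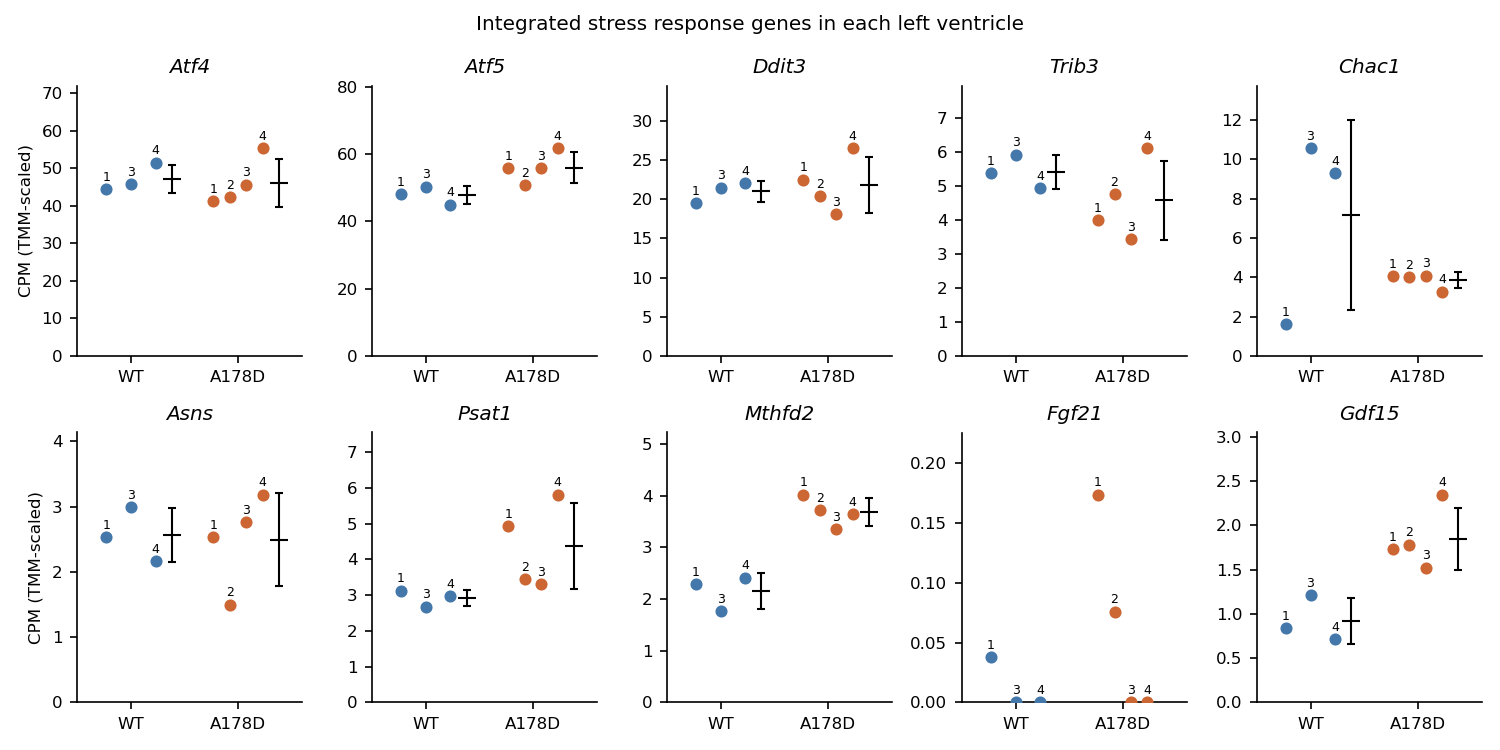
TMM-scaled CPM of the 10 members in each heart, with the replicate number above each point; black bars give the group mean and SD (3 WT, 4 A178D), except for Fgf21, which was not tested. The A178D hearts lie above all WT hearts for Atf5, Psat1, Mthfd2 and Gdf15, while WT replicate 1 lies far below the other WT hearts for Chac1.

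Compared per kilobase of the longest annotated transcript, the levels of the 3 transcription factors stood well above those of the other members. Atf5 reached 26.3 ± 1.46 CPM per kilobase in WT hearts (SD, n = 3) and 30.8 ± 2.48 in A178D hearts (SD, n = 4). Atf4 followed with 23.4 ± 1.85 in WT and 22.8 ± 3.19 in A178D hearts. In WT hearts Atf5 and Atf4 were not separated, and in WT replicate 4 Atf4 was higher (25.5 against 24.8 CPM per kilobase). Ddit3 stood at 21.7 ± 1.40 in WT and 22.6 ± 3.70 in A178D hearts. By this measure Atf4 and Ddit3 did not differ from each other beyond their spread in either group. This rests on the length used: the longest Ddit3 transcript has 969 bases and its merged exons 1713, against 2019 and 2358 for Atf4. Chac1 had 4.37 ± 2.96 CPM per kilobase in WT and 2.36 ± 0.239 in A178D hearts, and Trib3 had 2.67 ± 0.242 and 2.26 ± 0.572, so that these neighbours were not separated in either group. Asns, Psat1 and Mthfd2 lay close together in WT hearts, at 1.27 ± 0.205, 1.12 ± 0.0863 and 1.03 ± 0.165 CPM per kilobase. In A178D hearts Mthfd2 stood at 1.77 ± 0.131, Psat1 at 1.67 ± 0.460 and Asns at 1.24 ± 0.355 CPM per kilobase. Gdf15 was lower still in WT hearts, with 0.596 ± 0.167, while its 1.20 ± 0.228 in A178D hearts was not separated from Asns, and Fgf21 was last in both groups. Ranked by the mean over all 7 hearts, Mthfd2, Psat1 and Asns stood at places 6, 7 and 8 by transcript length. With merged exon lengths in place of transcript lengths their order was Asns, Psat1 and Mthfd2, while the other members kept their places. Ddit3 kept its place but lay further below Atf4 than by transcript length.

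The transcription factors of the set were compared first. Atf4 (chr15:80255184-80257541, plus strand, GRCm38), the factor whose translation defines the response, was at 44.5, 45.8 and 51.5 CPM in WT replicates 1, 3 and 4 and at 41.2, 42.3, 45.7 and 55.3 CPM in A178D replicates 1 to 4. The groups overlapped throughout, and both the lowest and the highest heart were A178D hearts. For Atf4 the log2 fold change came to -0.036 with an SE of 0.10 and a 95% interval from -0.25 to 0.18 (edgeR with Benjamini-Hochberg adjustment, adjusted p = 0.901), and its sign turned when single hearts were left out. Atf5, a related factor that is linked to the mitochondrial unfolded protein response, was at 48.0, 50.2 and 45.0 CPM in the WT hearts and at 55.8, 50.7, 55.7 and 61.7 CPM in the A178D hearts. The groups did not overlap, with A178D replicate 2 only slightly above WT replicate 3. Its log2 fold change of 0.23 (SE 0.081, 95% interval 0.054 to 0.40) did not pass the test (edgeR with Benjamini-Hochberg adjustment, adjusted p = 0.175). On the opposite strand Atf5 overlaps Nup62 and Il4i1, and since the sources used here do not say whether counting used strand, reads of these genes and of Atf5 in the overlaps cannot be told apart.

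Ddit3, which encodes the pro-apoptotic factor Chop, was at 19.5, 21.5 and 22.0 CPM in the WT hearts and at 22.5, 20.4, 18.1 and 26.5 CPM in the A178D hearts. The WT hearts lay inside the range of the A178D hearts, whose lowest was replicate 3 and whose highest was replicate 4. Its log2 fold change was 0.056 with an SE of 0.12 (edgeR with Benjamini-Hochberg adjustment, adjusted p = 0.861), and an offset for transcript length and GC content turned it to -0.055. It was also -0.047 without A178D replicate 4, and 0.14 without A178D replicate 3. The annotation holds another entry named Ddit3 on the same strand and Mars and Gm4189 on the opposite strand, all overlapping it.

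Of the targets that act back on the response, Trib3, a pseudokinase that restrains Atf4 and Ddit3, was at 5.38, 5.92 and 4.95 CPM in the WT hearts and at 3.99, 4.76, 3.44 and 6.11 CPM in the A178D hearts. A178D replicates 1 to 3 were below all WT hearts, but replicate 4 was above them all. The log2 fold change of -0.25 (SE 0.18, 95% interval -0.64 to 0.14) did not pass the test (edgeR with Benjamini-Hochberg adjustment, adjusted p = 0.530), and it moved to -0.14 without A178D replicate 3 and to -0.41 without A178D replicate 4.

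Chac1, whose product breaks down glutathione and which is among the genes most strongly induced by Atf4, was at 1.62, 10.6 and 9.30 CPM in WT replicates 1, 3 and 4 and at 4.06, 4.02, 4.08 and 3.27 CPM in A178D replicates 1 to 4. The A178D hearts were close to one another, WT replicates 3 and 4 were above all of them, and WT replicate 1 was below all of them. WT hearts thus spread 6.53-fold from lowest to highest, against 1.25-fold in A178D hearts. Chac1 had a log2 fold change of -0.88 with an SE of 0.41 and a 95% interval from -1.76 to -0.0085 (edgeR with Benjamini-Hochberg adjustment, adjusted p = 0.290). Without WT replicate 1 it was -1.36 with an adjusted p of 2.1e-04 in the same test, the only left-out heart with which Chac1 was called; over all 7 left-out hearts it ran from -1.36 to -0.48, with adjusted p from 2.1e-04 to 0.690. Without WT replicate 3 it was -0.48, and limma-voom gave -0.43. Among the WT hearts, other genes of the pathway stood on both sides in WT replicate 1: of the 109 tested genes of the other pathway lists, 47 were lowest and 27 highest there, against 39 and 37 in WT replicate 3 and 23 and 45 in WT replicate 4. Of 12 other targets of Atf4 and Ddit3, 5 were lowest in WT replicate 1, among them Ddit4 and Herpud1, and 6 were highest, among them Sesn2 and Tnfrsf10b. The 7 immediate early genes summed to 226.9 CPM in WT replicate 1, to 151.8 and 155.0 CPM in WT replicates 3 and 4, and to 133.1, 224.5, 215.3 and 232.7 CPM in A178D replicates 1 to 4, so that among the WT hearts the sum was highest in replicate 1. Jun was the most abundant of these 7 genes, none was at 0 in every heart, and 0 were called by edgeR or DESeq2 (0 at an unadjusted p under 0.05 by edgeR). Their part in the Chac1 values was not tested.

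Among the enzymes, Asns makes asparagine and is the classic amino acid response gene. It was at 2.53, 2.99 and 2.17 CPM in the WT hearts and at 2.53, 1.50, 2.76 and 3.18 CPM in the A178D hearts. The groups overlapped, with A178D replicate 2 the lowest and A178D replicate 4 the highest of all 7. Asns had a log2 fold change of -0.056 with an SE of 0.25 (edgeR with Benjamini-Hochberg adjustment, adjusted p = 0.941), with a 95% interval from -0.58 to 0.47 at a depth of 79 to 163 counts per heart, and its sign turned without WT replicate 3, without A178D replicate 2 and with replicate number as a block.

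Psat1, the transaminase of serine synthesis, was at 3.12, 2.68 and 2.98 CPM in the WT hearts and at 4.93, 3.45, 3.30 and 5.81 CPM in the A178D hearts. All A178D hearts were above all WT hearts, replicates 1 and 4 clearly and replicates 2 and 3 narrowly. The log2 fold change of 0.57 (SE 0.21, 95% interval 0.13 to 1.02) did not pass the test (edgeR with Benjamini-Hochberg adjustment, adjusted p = 0.186). The pseudogene Gm3329 overlaps Psat1 on the opposite strand and has no entry in the count table.

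Mthfd2 (chr6:83305691-83325908, minus strand, GRCm38), the mitochondrial enzyme that oxidises methylene-tetrahydrofolate and that is low in most adult tissues, was at 2.28, 1.76 and 2.41 CPM in the WT hearts and at 4.01, 3.72, 3.35 and 3.64 CPM in the A178D hearts. The groups were widely apart, and the A178D hearts were close to one another. These levels rest on 96 to 120 counts in WT and 118 to 196 counts in A178D hearts, and Gm43890, which has no entry in the count table, overlaps the gene on the same strand. Mthfd2 had a log2 fold change of 0.78 (SE 0.18), a 1.72-fold higher level with a 95% interval from 1.31 to 2.24, and its adjusted p of 0.0406 (edgeR with Benjamini-Hochberg adjustment) placed it 266 among all genes ranked by p. The call needed all 7 hearts. In refits lacking 1 heart the log2 fold change stayed between 0.65 and 0.86, while the adjusted p (edgeR with Benjamini-Hochberg adjustment) lay between 0.0511 without WT replicate 1 and 0.192 without WT replicate 3. With all 7 hearts and replicate number as a block, Mthfd2 had 0.78 and was not called (adjusted p = 0.0923, same test).

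Of the secreted factors, Gdf15, a distant member of the transforming growth factor β family that signals to the brainstem, was at 0.837, 1.21 and 0.714 CPM in the WT hearts and at 1.73, 1.78, 1.52 and 2.35 CPM in the A178D hearts. Every A178D heart was above every WT heart, and replicate 4 was the highest. Counts were few, from 29 to 66 in WT and from 65 to 94 in A178D hearts. Its log2 fold change of 0.99 (SE 0.28, 95% interval 0.39 to 1.58) was the highest of the 9 members but did not pass the test (edgeR with Benjamini-Hochberg adjustment, adjusted p = 0.0862). DESeq2's Wald test with the same adjustment gave 0.99 and an adjusted p of 0.0303, and adjusted p over all 16 refits with another tool, setting or set of hearts ran from 0.0303 to 0.255.

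Fgf21, a hormone-like growth factor made mainly by the liver, had 2, 0 and 0 counts in the WT hearts and 7, 4, 0 and 0 counts in the A178D hearts. It was at 0 in WT replicates 3 and 4 and in A178D replicates 3 and 4, which at a limit of 3 counts allows up to 0.0550 to 0.0926 CPM depending on the library, and more where a pair of counts stands for 1 fragment. No fold change is given for Fgf21, and a difference between the groups was not tested.

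Taken heart by heart, the 9 tested members stood highest in A178D replicate 4. In that heart 8 of 9 members were above their mean over the 7 hearts on the log2 scale, Chac1 being the exception, with a median deviation of 0.32. The median deviation was 0.076 in A178D replicate 1, -0.068 in replicate 2 and -0.022 in replicate 3. In WT replicates 1, 3 and 4 it was -0.13, -0.020 and -0.18. A178D replicate 4 was also the smallest library and had the lowest level of Ttn, the edited gene with its very long transcript, at 4086 CPM against 5360 to 6489 CPM in the other A178D hearts and 6246 to 7244 CPM in the WT hearts. Ryr2, a cardiomyocyte marker with a transcript of 16814 bases, was also lowest in A178D replicate 4. It was at 1520 CPM there, against 2126 to 2474 CPM in the other hearts. The part of these library differences in the members' values was not tested. In the test Ttn had a log2 fold change of -0.27 (edgeR with Benjamini-Hochberg adjustment, adjusted p = 0.287).

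The members are spread over 7 chromosomes. Chac1 and Trib3 lie on chromosome 2, which also carries Ttn (chr2:76703980-76982547), Asns and Mthfd2 lie on chromosome 6, and Atf5 and Fgf21 on chromosome 7. RefSeq promoters (GRCm38.p6, from 250 bases before to 50 bases after the start) were found for all 10 members, 13 promoters in all. They were searched on both strands for TGATGNAA, the core of the C/EBP-ATF response element that Atf4 binds together with a C/EBP partner. It occurs in 1304 of 32851 promoters (3.97%) and in 4 of the 13 promoters of the members, those of Trib3, Chac1, Asns and Fgf21. The promoters of the other 6 members, Atf4, Atf5, Ddit3, Psat1, Mthfd2 and Gdf15, did not hold these letters. The matches are shown because they mark which members hold these letters within the windows searched. Each is written 5′ to 3′ on the strand of the gene with the match in capitals.
Chac1, chr2:119351019-119351086, plus strand, first base 193 before the start, motif on the opposite strand: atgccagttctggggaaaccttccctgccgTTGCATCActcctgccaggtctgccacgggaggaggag
Asns, chr6:7693210-7693262, minus strand, first base 23 before the start, motif on the strand of the gene: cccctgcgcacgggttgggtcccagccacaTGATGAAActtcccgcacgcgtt
Fgf21, chr7:45615592-45615659, minus strand, first base 139 before the start, motif on the opposite strand: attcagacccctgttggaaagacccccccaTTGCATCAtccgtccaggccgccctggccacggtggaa
Trib3, chr2:152344028-152344057, minus strand, first base 15 of the transcript, motif on the opposite strand: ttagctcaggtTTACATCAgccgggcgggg
A match is a description of the letters only, and elements outside these windows were not searched.

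The other genes of the pathway were taken as 10 lists of 114 genes in all, of which 109 were tested. Of these, 3 were called higher (Shmt1, Gadd45a and Hspe1) and 2 lower (Mtr and Herpud1), or 4.59% beside 2.35% of all tested genes. Their median log2 fold change was 0.0070 beside 0.0023. Beside the counts by list given below, edgeR called 1.04% of all tested genes higher and 1.31% lower. At an unadjusted p under 0.05 these shares were 7.93% and 8.81%.

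**Figure D2:**
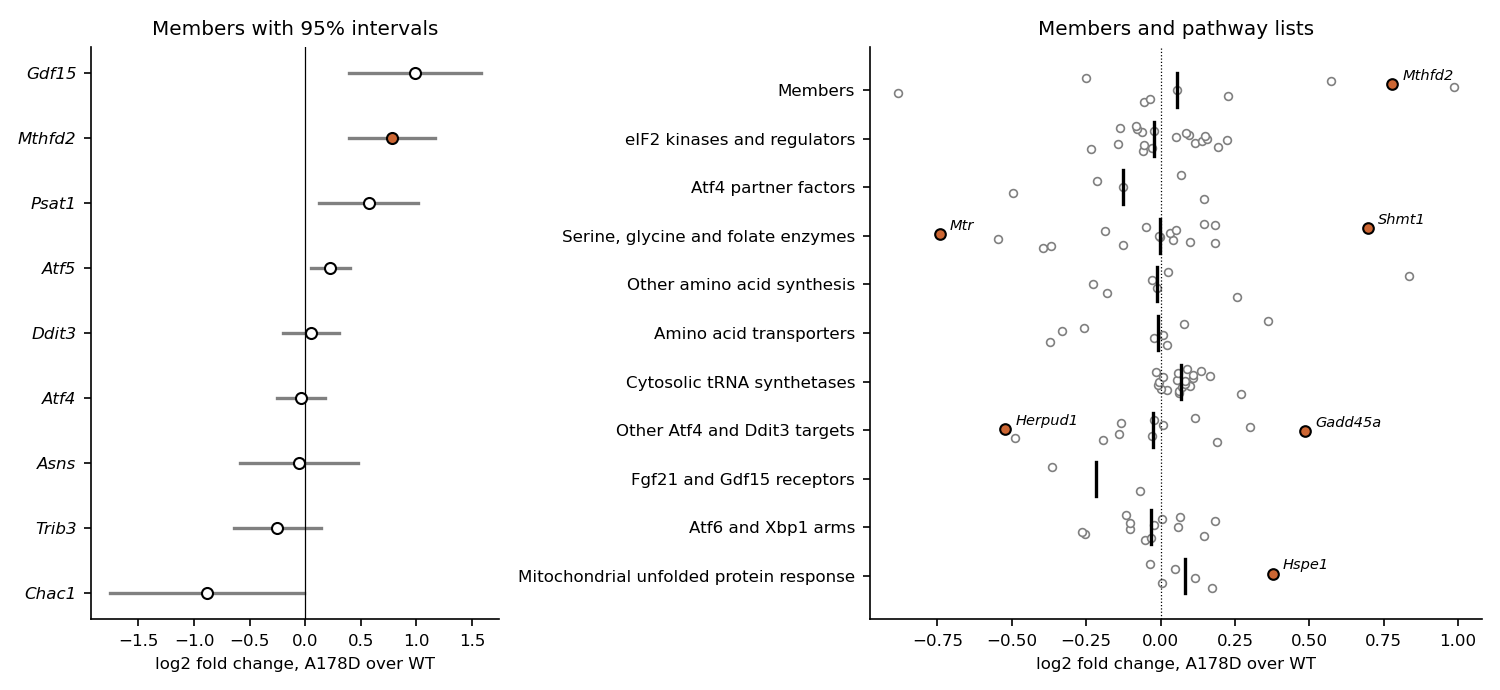
Log2 fold changes of A178D over WT hearts: left, the 9 tested members with 95% intervals; right, the members and the 10 pathway lists, each point a gene, each vertical bar the median of its list, the dotted line the median of all tested genes (0.0023). Filled points passed edgeR's test (adjusted p under 0.05) and are named; Mthfd2 is the only filled member, at 0.78.

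Upstream of Atf4, 0 of 19 eIF2 kinases, eIF2 and eIF2B subunits, phosphatase subunits and stress relays were called, with a median of -0.022 and, at an unadjusted p under 0.05, 0 higher and 1 lower (edgeR; DESeq2 called Dnajc3). Of the 4 kinases, Eif2ak1, the haem and mitochondrial stress sensor, had a log2 fold change of -0.028. The corresponding value was 0.19 for Eif2ak2, the sensor of double-stranded RNA, -0.054 for Eif2ak3 (Perk), the sensor in the endoplasmic reticulum, and -0.14 for Eif2ak4 (Gcn2), the sensor of uncharged tRNA. Without single hearts Eif2ak1 ran from -0.073 to 0.018, Eif2ak2 from 0.15 to 0.24, Eif2ak3 from -0.081 to -0.023 and Eif2ak4 from -0.22 to -0.065. Dnajc3, an inhibitor of eIF2 kinases that also serves as a chaperone in the endoplasmic reticulum, was at 70.7, 69.0 and 73.2 CPM in WT and at 60.5, 61.7, 58.4 and 61.2 CPM in A178D hearts. These groups were clearly apart, with a log2 fold change of -0.23 (edgeR with Benjamini-Hochberg adjustment, adjusted p = 0.0882, and DESeq2, 0.0281). For Dnajc3, offsets for transcript length and GC content gave -0.17 (edgeR with Benjamini-Hochberg adjustment, adjusted p = 0.153). Replicate number as a block gave -0.24 (adjusted p = 0.232, same test). Eif2s1, the subunit that is phosphorylated, did not overlap between the groups, and its log2 fold change was 0.15 (edgeR with Benjamini-Hochberg adjustment, adjusted p = 0.304). Phosphorylation itself is not measured by RNA counts.

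Of 5 partner factors of Atf4, 0 were called by edgeR and 0 had an unadjusted p under 0.05, with a median of -0.13 (DESeq2, 0). Cebpb, a C/EBP family partner, had a log2 fold change of -0.50 (edgeR with Benjamini-Hochberg adjustment, adjusted p = 0.349) with overlapping groups, and ran from -0.73 to -0.30 without single hearts. Jdp2 had -0.21, and -0.040 without WT replicate 3.

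Of 18 listed enzymes of serine, glycine and folate metabolism beside Psat1 and Mthfd2, 17 were tested, and 1 was called higher and 1 lower by edgeR (1 higher and 4 lower at an unadjusted p under 0.05), with a median of -0.0026. Shmt1, the cytosolic serine hydroxymethyltransferase, was at 11.1, 11.6 and 12.5 CPM in WT and at 16.6, 17.1, 24.0 and 18.3 CPM in A178D hearts. All A178D hearts were above all WT hearts, with replicate 3 the highest, and the level rose by a log2 fold change of 0.70 (SE 0.13; edgeR with Benjamini-Hochberg adjustment, adjusted p = 0.0144). Mtr, the methionine synthase that takes its methyl group from folate, was at 93.2, 93.4 and 100.7 CPM in WT and at 57.0, 59.1, 59.1 and 53.7 CPM in A178D hearts. The groups were far apart with little spread in either, and the log2 fold change was -0.74 (SE 0.070; edgeR with Benjamini-Hochberg adjustment, adjusted p = 2.8e-04). Mtr kept its call in all 16 refits, while Shmt1 lost it without WT replicate 3 (adjusted p = 0.0849, edgeR with Benjamini-Hochberg adjustment) and without WT replicate 4 (0.0547). Mthfd1l, the mitochondrial formate-producing enzyme, had -0.54 and Aldh1l2, a mitochondrial formyl-folate dehydrogenase, had -0.37, neither of which passed the test (edgeR with Benjamini-Hochberg adjustment, adjusted p = 0.159 and 0.178). Mthfd2 was thus called higher, while Mthfd1l and Aldh1l2 had values below 0 without a call. For Mthfd1l every A178D heart was below every WT heart, and for Aldh1l2 the groups overlapped. Of the 17 tested enzymes, 2 separated higher and 2 lower, beside 7.61% and 8.52% of all tested genes. The mitochondrial folate enzymes were not tested as a group.

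In the 8 other genes of amino acid synthesis, 7 were tested and 0 called by edgeR or DESeq2 (1 higher and 1 lower at an unadjusted p under 0.05 by edgeR), with a median of -0.012. Pycr1, a proline synthesis enzyme, was at 0.723, 0.679 and 0.541 CPM in WT and at 1.36, 0.967, 1.48 and 0.834 CPM in A178D hearts, which were all above the WT hearts. Its log2 fold change was 0.83 with an SE of 0.32 (edgeR with Benjamini-Hochberg adjustment, adjusted p = 0.213). Gpt2, the mitochondrial alanine aminotransferase, had -0.23, and -0.15 without WT replicate 4. Of 8 tested amino acid transporters, 0 were called by edgeR or DESeq2 (1 higher and 2 lower at an unadjusted p under 0.05 by edgeR), and the median was -0.0075. Slc7a5, the large neutral amino acid transporter, had a log2 fold change of 0.36 and Slc1a5, a glutamine carrier, had -0.37. Slc1a5 passed the test without WT replicate 1 (-0.49, edgeR with Benjamini-Hochberg adjustment, adjusted p = 0.0281) and without A178D replicate 4 (-0.46, adjusted p = 0.0452). Slc7a11, the cystine carrier, was not tested.

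Of the cytosolic tRNA synthetases, which charge tRNAs and include known Atf4 targets, all 20 were tested. Of these, 17 had log2 fold changes above 0, where 50.5% of all tested genes did, and the median was 0.068. In 5 of 20 every A178D heart was above every WT heart, beside 7.61% of all tested genes, and 0 were called by edgeR (2 higher and 0 lower at an unadjusted p under 0.05). Aars, the alanyl-tRNA synthetase, was at 81.7, 82.8 and 81.4 CPM in WT and at 103.0, 95.8, 91.4 and 105.3 CPM in A178D hearts. The groups were well separated, the log2 fold change was 0.27 (SE 0.070; edgeR with Benjamini-Hochberg adjustment, adjusted p = 0.0666), and it was called by DESeq2 (adjusted p = 0.0120) and by edgeR with offsets for transcript length and GC content (0.0243). Rars, the arginyl-tRNA synthetase, had 0.17.

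Of 12 other targets of Atf4 and Ddit3, 1 was called higher and 1 lower, with a median of -0.026. Gadd45a, a growth arrest gene, was at 12.3, 10.3 and 9.74 CPM in WT and at 15.7, 13.1, 16.1 and 15.4 CPM in A178D hearts. The groups did not overlap, and the level rose by a log2 fold change of 0.48 (SE 0.11; edgeR with Benjamini-Hochberg adjustment, adjusted p = 0.0434), and it was not called with offsets for transcript length and GC content (adjusted p = 0.100). Gadd45a kept its call without WT replicate 1 and without A178D replicate 2, and without each of the other 5 hearts its adjusted p was 0.0564 to 0.192 (edgeR with Benjamini-Hochberg adjustment). Herpud1, part of the machinery that degrades endoplasmic reticulum proteins, was at 250.0, 340.4 and 409.1 CPM in WT and at 207.0, 227.4, 234.5 and 258.5 CPM in A178D hearts. WT replicate 1 lay within the A178D range and the other WT hearts above it. Its log2 fold change of -0.52 (SE 0.13) passed the test narrowly (edgeR with Benjamini-Hochberg adjustment, adjusted p = 0.0494), and not with limma-voom (0.0648). Herpud1 kept its call without WT replicate 1 and without A178D replicate 4, and without each of the other 5 hearts its adjusted p was 0.0991 to 0.226 (edgeR with Benjamini-Hochberg adjustment). Ddit4, an inhibitor of mTOR signalling, had -0.49 (edgeR with Benjamini-Hochberg adjustment, adjusted p = 0.217), with -0.73 without WT replicate 1 (adjusted p = 0.0124 in the same test) and -0.22 without WT replicate 3 (0.646). Sesn2, a leucine sensor of the same pathway, had 0.30, and 0.18 without WT replicate 3.

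Of 4 receptor genes for the secreted factors, 2 were tested and 0 called by edgeR or DESeq2 (1 lower at an unadjusted p under 0.05 by edgeR). Fgfr1, a receptor for Fgf21, had a log2 fold change of -0.068 and Ret, the co-receptor of Gdf15, had -0.36 (edgeR with Benjamini-Hochberg adjustment, adjusted p = 0.785 and 0.250), and Fgfr1 ran from -0.17 to 0.059 without single hearts. Klb, the co-receptor that Fgf21 needs, did not exceed 0.556 CPM, and Gfral, the Gdf15 receptor, was at 0 in all 7 hearts.

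Atf6 and Xbp1 act beside Atf4 when proteins misfold in the endoplasmic reticulum. Of 13 genes of the Atf6 and Xbp1 arms, 0 were called by edgeR (0 higher and 2 lower at an unadjusted p under 0.05), with a median of -0.033. In 3 of 13 every A178D heart was below every WT heart, beside 8.52% of all tested genes, and 0 separated in the other direction. Dnajb9, an Xbp1 target and chaperone partner, was at 53.5, 50.8 and 56.0 CPM in WT and at 44.5, 45.4, 45.2 and 44.0 CPM in A178D hearts. All A178D hearts were below all WT hearts, and the log2 fold change was -0.25 (edgeR with Benjamini-Hochberg adjustment, adjusted p = 0.0753, and 0.0271 with offsets for transcript length and GC content; DESeq2, 0.0240). Edem1, another gene of endoplasmic reticulum protein degradation, had -0.27. In the mitochondrial unfolded protein response 1 of 6 genes was called higher and 0 lower, with a median of 0.083. Hspe1, the small subunit of the mitochondrial chaperonin, was at 79.3, 78.2 and 85.6 CPM in WT and at 109.0, 91.9, 107.4 and 112.6 CPM in A178D hearts. It was higher in every A178D heart and rose by a log2 fold change of 0.38 (SE 0.080; edgeR with Benjamini-Hochberg adjustment, adjusted p = 0.0274). Its call held without A178D replicate 2 and without A178D replicate 4, and without each of the other 5 hearts its adjusted p was 0.0516 to 0.158 (edgeR with Benjamini-Hochberg adjustment). Its partner Hspd1 had 0.12 (edgeR with Benjamini-Hochberg adjustment, adjusted p = 0.506), and 0.052 without WT replicate 3. The protease Clpp had 0.17, with 0.073 without A178D replicate 4 and 0.047 with offsets for transcript length and GC content.

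Several other measured features differed between the groups. Of the clock genes, Arntl (Bmal1) was at 2.43, 1.10 and 1.33 CPM in WT and at 8.70, 5.24, 4.15 and 4.14 CPM in A178D hearts. It rose by 1.77 on the log2 scale (edgeR with Benjamini-Hochberg adjustment, adjusted p = 0.0115), 1 of 3 genes of its phase to be called, with Clock the most abundant. Of 8 genes of the opposite phase, led in abundance by Tef, 0 were called higher and 3 lower: Per2 (-0.88), Per3 (-0.47) and Tef (-0.39). In the same list Nr1d1 had 0.51 (edgeR with Benjamini-Hochberg adjustment, adjusted p = 0.0717) and Dbp had 0.0016. The summed level of these 8 genes was 1089, 1090 and 1117 CPM in WT and 856.1, 959.3, 1036 and 1007 CPM in A178D hearts, and that of the 3 genes in the Bmal1 phase was 51.4, 42.1 and 43.5 CPM in WT and 70.3, 59.0, 59.6 and 41.9 CPM in A178D hearts. The time of day at which hearts were taken is not given in the sources used here, and its part in the members' values was not tested.

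Of 12 lists of cell type markers, 2 held genes called by edgeR. All 4 smooth muscle genes (Acta2, the most abundant, Tagln, Myh11 and Cnn1) were called lower, with a summed level of 431.3, 413.8 and 393.9 CPM in WT and 219.8, 283.2, 294.9 and 271.0 CPM in A178D hearts. Among 8 macrophage genes Lyz2, the most abundant, was called higher (0.40; edgeR with Benjamini-Hochberg adjustment, adjusted p = 0.0339; 3 higher and 1 lower at an unadjusted p under 0.05), with a median of 0.25 over the list and a summed level of 277.5, 358.9 and 328.4 CPM in WT and 386.4, 394.9, 350.5 and 391.3 CPM in A178D hearts. None of these 12 genes was at 0 in any heart. Among lists without a call by edgeR, the most abundant genes included, beside Myh6 and Myl4, Dcn (fibroblasts, 519 to 646 CPM), Kdr (endothelium, 202 to 299 CPM) and Alas2 (erythrocytes, 17.8 to 26.1 CPM). S100a9 (neutrophils), Tnnt3 (skeletal muscle), Cfd (adipocytes) and Alb (hepatocytes) led their lists at no more than 1.49 CPM in any heart. Of the 4 fibroblast genes, 1 was higher at an unadjusted p under 0.05 by edgeR, and its groups did not overlap, while DESeq2 called 1 higher. In the lists led by Kdr, Alas2, S100a9, Tnnt3 and Cfd both counts were 0, and no hepatocyte gene was tested. In whole ventricle fewer cells of a type and less RNA per cell cannot be told apart, and the part of these cell types in the values of Mthfd2, Gdf15 and the other members was not tested.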

How the data were processed

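Counts as deposited (unnormalised, 1 column per library) were made, per the submitters' processing notes, with bcl2fastq 2.18.0.12, HISAT2 2.1.0 and SAMtools 1.6 on GRCm38; the counting program, its strand setting and its annotation are not given in the sources used here. The deposited DESeq2-normalised table was not used here. Of 21257 entries, those sharing counts were merged, leaving 20927. Odd numbers were rare among low counts (17.6% to 20.3% of values from 1 to 20), so a pair of counts often stands for 1 fragment. Genes reaching 10 counts in 3 or more libraries were tested with edgeR 4.0.16 (TMM, quasi-likelihood test) in R 4.3.3, with Benjamini-Hochberg adjustment over all tested genes and a threshold of 0.05. DESeq2 1.42.0, limma-voom 3.58.1 and offsets from mgcv 1.9.3 were alternatives, and the scripts were tested on simulated data. Names, positions and lengths came from GENCODE annotation of GRCm38. Members and lists were chosen with earlier results of these data known. Genes named beside the members were those of each pathway list with an adjusted p under 0.05, the 2 with the lowest p beside these, the 4 eIF2 kinases, and the called and most abundant genes of the other lists, of which 1 is not reported here; Myl7, Sln, Nr1d1, Dbp, Tnfrsf10b, Slc7a11, Klb and Gfral lie outside this rule and were named after their values were seen. Intervals and count limits cover counting error and the spread between these hearts only.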

Additional observations from a re-analysis of the deposited data

Results flagged for a closer look

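In 2 of 39 genes examined, 1 A178D heart stood far from the other 3 by Dixon's ratio, which chance gives for about 1 in 20 groups. Chac1 was at 3.27 CPM in A178D replicate 4, below the other A178D hearts, which lay between 4.02 and 4.08 CPM. Rars was at 51.2 CPM in A178D replicate 4, above the other A178D hearts, which lay between 47.5 and 47.8 CPM. Groups of 3 were not examined in this way, so that the low Chac1 value of WT replicate 1 is not among these.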

How the results depend on the processing

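Genes called higher and lower (145 and 182) became 289 and 377 with DESeq2, 229 and 277 with offsets for transcript length and GC content, and 24 and 40 at an adjusted p under 0.01. Leaving out single hearts gave 22 to 215 called higher and 31 to 238 called lower, with the most calls without WT replicate 1. Members called higher (1) became 2 with DESeq2 and 0 at an adjusted p under 0.01 or with any single heart left out (0 to 0). Members called lower (0) were 0 to 1 without single hearts, Chac1 being called without WT replicate 1. Listed pathway genes called higher (3) became 4 with DESeq2, 0 at an adjusted p under 0.01 and 0 to 3 without single hearts. Those called lower (2) became 4 with DESeq2, 3 with offsets for transcript length and GC content, 1 with limma-voom, 1 at an adjusted p under 0.01, and 1 to 4 without single hearts.

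With the replicate block, 124 genes were called higher and 147 lower, 221 of them among the 327 called without it, and members called higher became 0 (Mthfd2 0.78, adjusted p = 0.0923, edgeR). Asns turned to 0.14 with the replicate block. Over all tested genes, deviations of same-numbered hearts from their genotype means had r = 0.0019, -0.0261 and -0.0197. Hearts of different numbers had r from -0.0574 to 0.0768. Whether same-numbered hearts shared a litter or preparation is not given in the sources used here. These r values cannot decide it, because deviations were centred within each genotype and taken over all genes at once.

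Ddit3 turned to -0.055 with offsets for transcript length and GC content. Without single hearts, Atf4 ran from -0.13 to 0.030, Asns from -0.19 to 0.14, Ddit3 from -0.047 to 0.14, Eif2ak1 from -0.073 to 0.018 and Fgfr1 from -0.17 to 0.059. The cause was not tested. The other 33 of 38 genes followed kept their sign in all 16 refits. The filter kept Fgf21 out. Mthfd2, Psat1, Asns and Gdf15 had below about 200 counts per heart, and the part of depth in their precision was not tested.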
